A study of Mus musculus with 2 samples.

Results

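Cytotoxic granule genes are the genes of the killing machinery that natural killer (NK) cells and cytotoxic T cells carry in secretory granules, together with surface receptors and a chemokine that these cells share. Of the 32285 genes counted in these data, 7 were followed here: Gzma and Gzmb (granzymes A and B), Prf1 (perforin), Nkg7 (a granule membrane protein), Ccl5 (a chemokine stored and secreted by the same lymphocytes), and Klrd1 (CD94) and Ncr1 (NKp46), which are NK receptors. They were chosen by name, with their levels in these same libraries already known, so those levels are given as a description. All 7 were found in the count tables, and each had at least 1 UMI (unique molecular identifier, 1 counted RNA molecule) in both libraries.

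Perforin opens the membrane of a target cell so that granzymes, which are serine proteases, can enter and cut the proteins inside. Nkg7 takes part in the release of the granules. NK cells and the related group 1 innate lymphoid cells (ILC1) of adipose tissue recognise targets through receptors such as Ncr1 and the Klrd1 heterodimers, whereas regulatory T cells (Treg) and group 2 innate lymphoid cells (ILC2) are best known in lean fat for restraining inflammation and for type 2 cytokines.

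The cells were live eYFP+ stromovascular cells, sorted out of perigonadal white fat (gWAT) of male Cyp1a1 fate reporter mice (Cyp1a1Cre crossed to R26LSL-eYFP). In these mice Cre under the Cyp1a1 promoter marks for good any cell in which this target of the aryl hydrocarbon receptor (AHR) has been active, so only cells with such a history were sampled. One group was fed a low-fat diet (LFD, 10% fat) and one a high-fat diet (HFD, 60% fat), each for 12 weeks, and both were given 10 mg/kg of FICZ, which activates AHR, 5 days ahead of tissue collection. Each diet had 1 single-cell RNA-seq library made from pooled mice, with nothing to tie a cell to a mouse, so the diets could not be tested against each other and every interval below covers counting error only.

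After filtering on 500 to 40000 UMIs and under 12.5% mitochondrial UMIs, 10216 of 11281 LFD cells and 8537 of 9631 HFD cells remained, with a median of 10636.5 and 13231 UMIs. Cells were assigned to types by how many markers of each list they expressed, and none of the 7 genes was in a list. This gave 23 LFD and 37 HFD NK/ILC1-like cells, 32 and 16 Treg-like cells, 43 and 39 other T-like cells and 117 and 97 ILC2-like cells, in all 215 and 189 T, NK and ILC cells, or 2.10% and 2.21% of cells. Foxp3 was found in 27 of 32 and 14 of 16 Treg-like cells and Il1rl1 in 103 of 117 and 88 of 97 ILC2-like cells, which restates the assignment, since both were among its markers. Ptprc (CD45), which was in no list, was found in 18 of 23 and 36 of 37 NK/ILC1-like cells, Cd3e in none of them and Cd3d in 2 and 4, where cells with more T markers had been sent to the T classes. Il13, also a marker used for assignment, was found in 49 and 32 ILC2-like cells. It was also in 2 LFD other T-like cells and in no NK/ILC1-like or Treg-like cell. Among NK/ILC1-like cells Klrb1c (NK1.1) was found in 11 of 23 and 19 of 37, but Eomes, which marks NK cells over ILC1, in 3 of each. Both were among the markers that assigned this class. Cells with markers of more than 1 lineage, 340 LFD and 421 HFD, were set apart, and 27 barcodes occurred in both libraries.

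The 250 bases before the RefSeq transcription start (GRCm38.p6) were available for 5 of the 7 genes and are shown for 4 of them, because the 2 granzymes were found in Treg-like cells with few or no UMIs of the 2 NK-type genes below. Capitals mark matches on either strand to the RUNX letters TGTGGT or TGCGGT or to the T-box letters GGTGTGA, which are core motifs of the Runx3 and of the Tbx21 and Eomes families of factors. The windows lie at chr13:113100982-113101231 (minus strand), chr14:56262335-56262584 (minus strand), chr7:43436888-43437137 (plus strand) and chr7:4337465-4337714 (plus strand), and each is written 5′ to 3′ along its gene.
Gzma: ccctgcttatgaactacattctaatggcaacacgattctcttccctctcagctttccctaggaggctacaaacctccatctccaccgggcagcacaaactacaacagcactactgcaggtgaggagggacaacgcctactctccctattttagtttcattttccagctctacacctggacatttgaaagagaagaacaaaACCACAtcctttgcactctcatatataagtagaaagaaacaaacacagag
Gzmb: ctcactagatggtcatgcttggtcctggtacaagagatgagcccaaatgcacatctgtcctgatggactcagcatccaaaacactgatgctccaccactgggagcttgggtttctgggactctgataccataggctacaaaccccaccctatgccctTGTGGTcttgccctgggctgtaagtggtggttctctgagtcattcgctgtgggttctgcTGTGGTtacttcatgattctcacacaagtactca
Nkg7: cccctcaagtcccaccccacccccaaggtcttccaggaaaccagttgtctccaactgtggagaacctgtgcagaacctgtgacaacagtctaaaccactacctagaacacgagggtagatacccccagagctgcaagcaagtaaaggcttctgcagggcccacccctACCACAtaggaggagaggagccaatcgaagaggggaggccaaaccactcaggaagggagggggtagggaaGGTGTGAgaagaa
Ncr1: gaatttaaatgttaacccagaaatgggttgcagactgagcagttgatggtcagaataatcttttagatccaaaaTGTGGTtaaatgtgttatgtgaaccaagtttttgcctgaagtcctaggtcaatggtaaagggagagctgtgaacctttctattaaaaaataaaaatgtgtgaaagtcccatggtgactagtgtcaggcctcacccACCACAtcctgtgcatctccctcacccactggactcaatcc
All 5 promoters, Prf1 included, held a RUNX match, with 1 each in Gzma, Prf1 and Nkg7 and 2 each in Gzmb and Ncr1, against 18.6% of 32817 mouse promoter windows of this length. The RUNX match of Gzma lay 50 bases before the start, and a T-box match lay 13 bases before the start of Nkg7, where 3.33% of windows hold one. GATA letters (AGATAA or TGATAA) were in none of the 5 windows and in 16.6% of all windows. These matches are a description of the letters only.

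Gzma (ENSMUSG00000023132, chr13:113093825-113100981, minus strand, protein coding) had 690 UMIs in 47 LFD cells and 190 UMIs in 27 HFD cells. In the LFD library its main holder was not the NK/ILC1-like class. Treg-like cells held 335 UMIs, 48.6% of the LFD total, other T-like cells 125, NK/ILC1-like cells 112 and ILC2-like cells 83. In the HFD library Treg-like cells held 39 UMIs, other T-like cells 5, NK/ILC1-like cells 24 and ILC2-like cells 49, and 66 UMIs, 34.7%, were in cells of mixed lineage.

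Most of this signal came from a few cells with many molecules. The 10 of 32 LFD Treg-like cells with Gzma held 112, 73, 48, 33, 23, 21, 20, 2, 2 and 1 UMIs, and the 4 of 16 HFD cells held 29, 7, 2 and 1. The LFD cells thus fell into 7 high and 3 low cells, and the highest HFD cell lay within the range of the LFD ones. In NK/ILC1-like cells the 4 LFD cells with Gzma held 43, 42, 20 and 7 UMIs and the 6 HFD cells 14, 4, 2, 2, 1 and 1. Among ILC2-like cells, 9 of 117 LFD cells held 1 to 27 UMIs and 3 of 97 HFD cells held 30, 10 and 9. Of the 125 UMIs in LFD other T-like cells, 92 were in 1 cell that had a UMI of Cd8a or Cd8b1, and the single positive HFD cell held 5.

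Pooled over cells and scaled to counts per 1000000 UMIs (CPM), Gzma in the LFD library stood at 1972 CPM in Treg-like cells (95% interval 1766 to 2195), 1376 in NK/ILC1-like cells (1133 to 1656), 682 in other T-like cells (568 to 813) and 100.3 in ILC2-like cells (79.9 to 124). Each neighbour in that order was apart from the next by its counting interval. In the HFD library the order was Treg-like at 489 CPM (348 to 668), NK/ILC1-like at 165 (106 to 246), ILC2-like at 116 (85.7 to 153) and other T-like at 43.7 (14.2 to 102), where the ILC2-like interval overlapped that of both its neighbours. The place of Treg-like above NK/ILC1-like cells was not kept under every alternative. In HFD it was 0 against 575 CPM under a 5% mitochondrial limit and 264 against 349 CPM with cells of mixed lineage counted by their lymphoid gate. As the mean of per-cell CPM it was 287 against 448 in HFD and 1443 against 1783 in LFD. The share of cells with Gzma was 31.2% (16.1% to 50%) and 25.0% (7.27% to 52.4%) in LFD and HFD Treg-like cells. Thinned to 1000 UMIs per cell, it was 22.6% of 31 cells and 12.5% of 16 cells, with 1 LFD cell too shallow to enter. In stromal-like cells, which should lack the gene and were deeper (medians of 12546 and 16609 UMIs against 3391.5 and 4559.5 in Treg-like cells), the shares were 0.157% and 0.0235%, with 1 UMI in each positive cell.

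**Figure D1:**
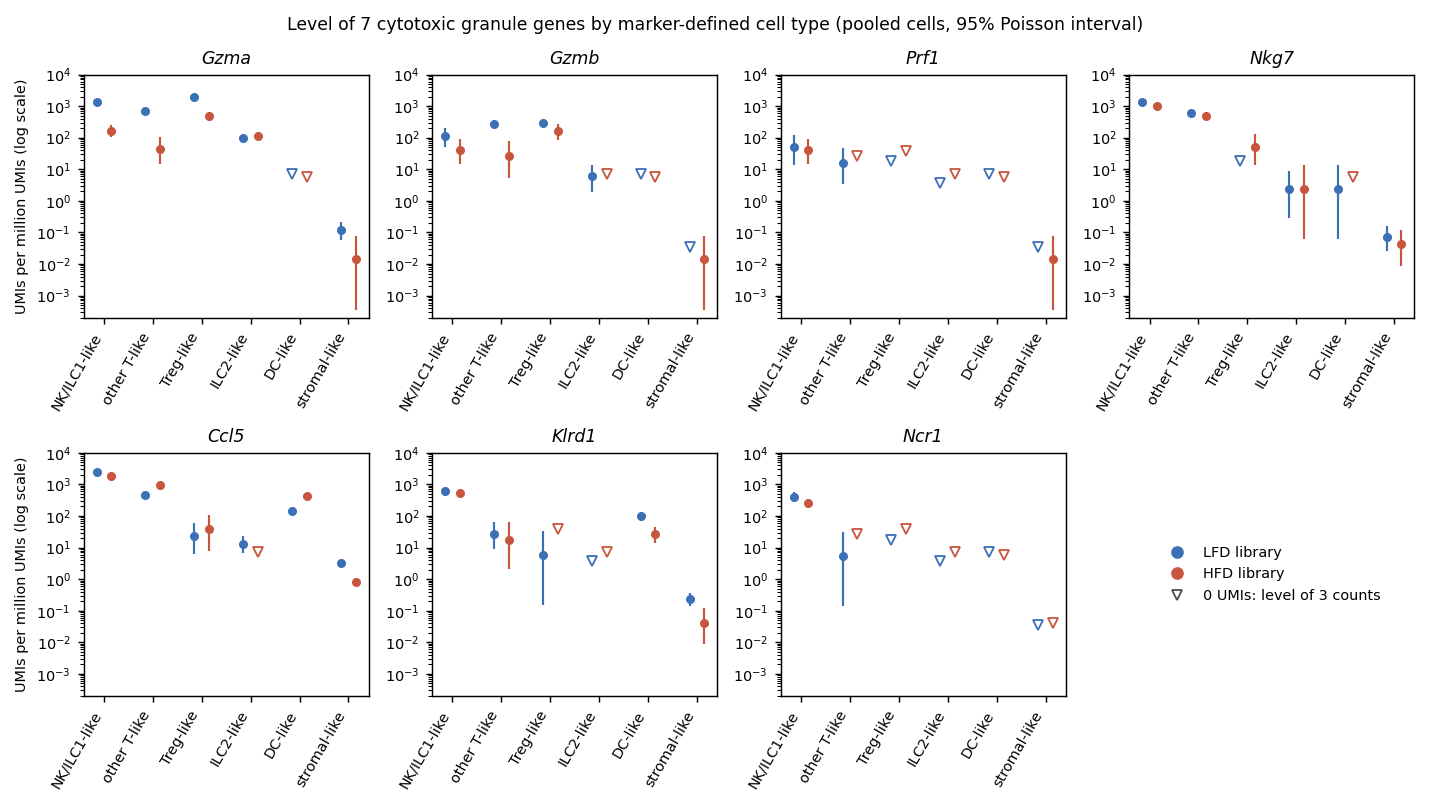
Level of each gene in pooled cells of 6 marker-defined types, in CPM on a log scale, for the LFD (blue) and HFD (red) libraries; bars are 95% Poisson intervals and open triangles stand at the level of 3 counts where no UMI was seen. With all filtered cells pooled, Gzma and Gzmb were highest in Treg-like cells, for Gzma an order that some alternatives reversed and for Gzmb with overlapping intervals, whereas Nkg7, Ccl5, Klrd1 and Ncr1 were highest in NK/ILC1-like cells in both libraries.

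The Treg-like cells with Gzma carried more cycling markers than the rest. In the LFD library 7 of 10 Treg-like cells with Gzma had UMIs of at least 3 of 5 cycling markers, against 1 of 22 without it. In the HFD library these were 3 of 4 and 1 of 12. The positive cells were also deeper, with median UMIs of 7911 against 2513.5 in LFD and 8765.5 against 3386.5 in HFD, and the part of depth in the cycling count was not tested. Foxp3, the factor that defines Treg cells, was found in 8 of the 10 and all 4 of the positive cells. In LFD NK/ILC1-like cells 3 of 4 cells with Gzma and 2 of 19 without it had 3 cycling markers, but in HFD none of 6 had them. Among other T-like cells these were 3 of 5 against 3 of 38 in LFD and 1 of 1 against 2 of 38 in HFD, and among ILC2-like cells 2 of 9 against 28 of 108 in LFD and 1 of 3 against 6 of 94 in HFD.

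Gzmb (ENSMUSG00000015437, chr14:56258838-56262260, minus strand) had 143 LFD UMIs in 34 cells and 36 HFD UMIs in 17 cells. Treg-like cells held 49 and 13 UMIs, other T-like cells 51 and 3, NK/ILC1-like cells 9 and 6, and ILC2-like cells 5 and 0. In the LFD library Treg-like cells at 288 CPM (213 to 381) and other T-like cells at 278 CPM (207 to 366) overlapped, and the interval of NK/ILC1-like cells at 111 CPM (50.6 to 210) reached that of other T-like cells. In the HFD library the values were 163 CPM (86.8 to 279) in Treg-like, 41.3 CPM (15.1 to 89.8) in NK/ILC1-like and 26.2 CPM (5.41 to 76.7) in other T-like cells, and each neighbour in that order overlapped the next. Outside the lymphoid types, the only basophil-like cell of the LFD library held 14 Gzmb UMIs, and that of the HFD library 2. Both cells were among those with the highest doublet scores. Among the 10 LFD Treg-like cells with Gzma, 6 also had Gzmb, against 3 of 22 without Gzma, whereas none of the 4 HFD cells with Gzma had it, so the 3 HFD cells with Gzmb were other cells.

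Prf1 (ENSMUSG00000037202, chr10:61297833-61304680, plus strand) was near the limit of detection, with 10 UMIs in 7 LFD cells and 14 UMIs in 12 HFD cells. NK/ILC1-like cells held 4 UMIs in 4 cells and 6 UMIs in 5 cells, or 49.2 CPM (13.4 to 126) and 41.3 CPM (15.1 to 89.8). Of the others, 3 LFD UMIs were in 2 other T-like cells, and 3 LFD and 5 HFD UMIs were in 1 and 4 cells of mixed lineage, of which 1 HFD cell had passed the Treg-like gate. Perforin was not detectable in the Treg-like cells themselves, the class with most granzyme A in the LFD library. No UMI was seen in 32 LFD or 16 HFD Treg-like cells, which allows a level of up to 17.7 and 37.6 CPM and a share of cells with a UMI of up to 9.38% and 18.8%, and none in 117 or 97 ILC2-like cells, which allows up to 3.63 and 7.1 CPM.

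Nkg7 (ENSMUSG00000004612, chr7:43437073-43438249, plus strand) was spread over nearly all NK/ILC1-like cells. It was found in 21 of 23 LFD and 34 of 37 HFD cells of that class, with a median of 4 UMIs in a positive cell in both libraries. The levels were 1315 CPM (1078 to 1589) and 1039 CPM (880 to 1218). Other T-like cells followed at 584 CPM (478 to 705) and 490 CPM (370 to 636), with 19 of 43 and 17 of 39 cells positive. All 5 LFD and all 4 HFD cells of that class with Cd8a or Cd8b1 had Nkg7. Treg-like cells held no UMI in LFD, which allows up to 17.7 CPM, and 4 UMIs in 2 HFD cells, and ILC2-like cells held 2 and 1 UMIs. Stromal-like cells had a UMI in 0.0629% and 0.0704% of cells.

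Ncr1 (ENSMUSG00000062524, chr7:4337724-4345164, plus strand) was the most restricted of the 7 genes. NK/ILC1-like cells held 33 of 45 LFD UMIs and 37 of 47 HFD UMIs, in 16 of 23 and 19 of 37 cells, at 406 CPM (279 to 570) and 254 CPM (179 to 351). Outside them 1 LFD other T-like cell held 1 UMI, and no UMI was seen in Treg-like, ILC2-like, DC-like, B-like or stromal-like cells of either library. The remaining UMIs were in cells of mixed lineage (3 and 8), in unassigned cells (8 and 1) and, for the last HFD UMI, in a plasma cell-like cell.

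Klrd1 (ENSMUSG00000030165, chr6:129591782-129598775, plus strand) had a second home outside the lymphocytes. NK/ILC1-like cells held 49 and 78 UMIs, in 22 of 23 LFD and 24 of 37 HFD cells, at 602 CPM (445 to 796) and 536 CPM (424 to 670). Dendritic cell (DC)-like cells held 41 and 14 UMIs in 20 of 51 and 13 of 61 cells, at 99.8 CPM (71.6 to 135) and 26.4 CPM (14.5 to 44.4). Flt3, a marker of the class, was found in 19 of 20 and 12 of 13 DC-like cells with Klrd1 and in 23 of 31 and 44 of 48 without it. Klrb1c and Cd3e were seen in no DC-like cell with or without Klrd1, but cells that also passed a lymphoid gate had been set apart as mixed. Clec9a, which marks cross-presenting DCs, was found in 14 of 20 LFD DC-like cells with Klrd1 and 13 of 31 without it, but in 10 of 13 and 39 of 48 HFD cells. A further 108 LFD and 35 HFD UMIs were in 45 and 12 cells that reached no gate, of which 43 and 11 had the class II gene H2-Ab1, against 55 of 255 and 48 of 240 unassigned cells without Klrd1. With each cell thinned to 1000 UMIs, Klrd1 was kept in 8 of 51 DC-like cells of the LFD library and in 0 of 61 of the HFD library, against 20 and 13 cells unthinned.

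Ccl5 (ENSMUSG00000035042, chr11:83525778-83530518, minus strand) was the most widely placed of the 7 genes, with 776 UMIs in 95 LFD cells and 891 UMIs in 94 HFD cells. NK/ILC1-like cells held 201 and 268 UMIs in 18 of 23 and 25 of 37 cells, at 2470 CPM (2140 to 2836) and 1843 CPM (1629 to 2078). Other T-like cells held 83 and 110 UMIs in 10 of 43 and 13 of 39 cells, at 453 CPM (361 to 561) and 962 CPM (791 to 1160). Treg-like cells (4 and 3 UMIs) and ILC2-like cells (11 and 0 UMIs) held little. In DC-like cells 6 cells of each library carried all of it, with 33, 16, 4, 4, 2 and 1 UMIs in LFD and 115, 43, 27, 23, 11 and 2 in HFD. All 12 of these cells had Ccr7 and Fscn1, markers of mature migratory DCs that were also in the DC list, against 15 and 13 of the other 45 LFD and 3 and 4 of the other 55 HFD DC-like cells. In stromal-like cells 25 LFD cells held 279 UMIs, of which 125, 69 and 33 were in 3 cells, and 16 HFD cells held 58 with 22 in the highest, so the stromal-like signal also rested on a few cells.

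**Figure D2:**
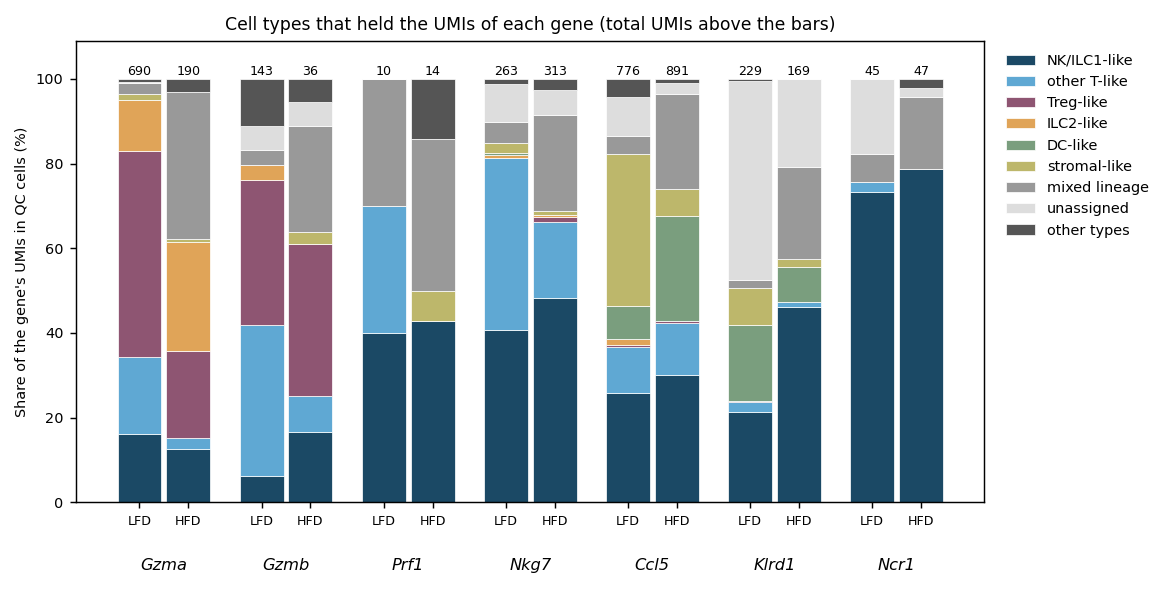
Share of each gene's UMIs that lay in each cell type, in percent of the UMIs in filtered cells of that library, with the total above each bar. NK/ILC1-like cells held most Ncr1, Treg-like cells the largest LFD share of Gzma, DC-like and unassigned cells much of Klrd1, and stromal-like cells 36% of LFD Ccl5.

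Seen cell by cell, the 7 genes shared cells mainly in the NK/ILC1-like class. There 20 of 23 LFD and 28 of 37 HFD cells had at least 3 of the 7 genes, and 2 LFD cells had all 7. Among other T-like cells 7 of 43 and 3 of 39 had 3 or more, up to 4 in a cell. In Treg-like cells 1 of 32 and 0 of 16 cells had 3 of them, and in ILC2-like cells none. Of the cells with Gzma or Gzmb, all 7 LFD and all 9 HFD NK/ILC1-like cells also had Nkg7, Klrd1 or Ncr1. The same held for 6 of 9 and 4 of 4 other T-like cells, 0 of 13 and 2 of 7 Treg-like cells, and 1 of 10 and 0 of 3 ILC2-like cells. The 2 HFD Treg-like cells carried 2 UMIs of Nkg7 each, and the ILC2-like cell 1. Conversely, 16 of 23 LFD and 26 of 37 HFD NK/ILC1-like cells had at least 1 of Nkg7, Klrd1 and Ncr1 and no granzyme. In 103 of 117 LFD and 93 of 97 HFD ILC2-like cells none of the 7 genes was seen.

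Within NK/ILC1-like cells, those with Gzma were set beside those without it, of which 3 LFD and 3 HFD cells had Gzmb. All 4 LFD cells with Gzma had Prf1, against 0 of 19 without it, but among HFD cells these were 1 of 6 and 4 of 31. Klra8, the activating receptor Ly49H, was found in 2 of 4 and 3 of 6 cells with Gzma and in 0 of 19 and 0 of 31 cells without it. Any of 5 Klra (Ly49) genes was found in 4 of 4 and 3 of 6 such cells against 4 of 19 and 8 of 31, and Eomes in 2 of 4 and 1 of 6 against 1 of 19 and 2 of 31. Rora, a factor of ILC, ran the other way, in 0 of 4 and 1 of 6 against 12 of 19 and 22 of 31, as did the receptor Cd160, in 1 of 4 and 1 of 6 against 15 of 19 and 17 of 31. Among other NK genes, Klre1 went with Gzma, in 3 of 4 and 5 of 6 against 6 of 19 and 9 of 31. Tbx21 did not, in 0 of 4 and 0 of 6 against 3 of 19 and 8 of 31. Nor did Klrc1, in 0 of 4 and 2 of 6 against 7 of 19 and 12 of 31. Klrb1c was level, in 2 of 4 and 3 of 6 against 9 of 19 and 16 of 31. In HFD Klra7 by itself was in 1 of 6 against 5 of 31. Cells with and without Gzma differed in depth, with medians of 3494.5 and 2330 UMIs in LFD and 1819.5 and 2952 in HFD, and the part of depth in these counts was not tested. These genes were picked after their values had been seen. Klra8, 3 other Klra genes, Eomes, Klre1, Tbx21, Klrc1 and Klrb1c were among the markers that assigned the class. Rora was an ILC2 marker, and cells with 5 or more ILC2 markers could not enter the class. Nkg7, Klrd1 and Ccl5 were common with or without Gzma: in LFD, Nkg7 was found in 4 of 4 and 17 of 19 cells, Klrd1 in 4 of 4 and 18 of 19, and Ccl5 in 4 of 4 and 14 of 19. In HFD, Nkg7 was found in 6 of 6 and 28 of 31, Klrd1 in 5 of 6 and 19 of 31, and Ccl5 in 5 of 6 and 20 of 31.

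**Figure D3:**
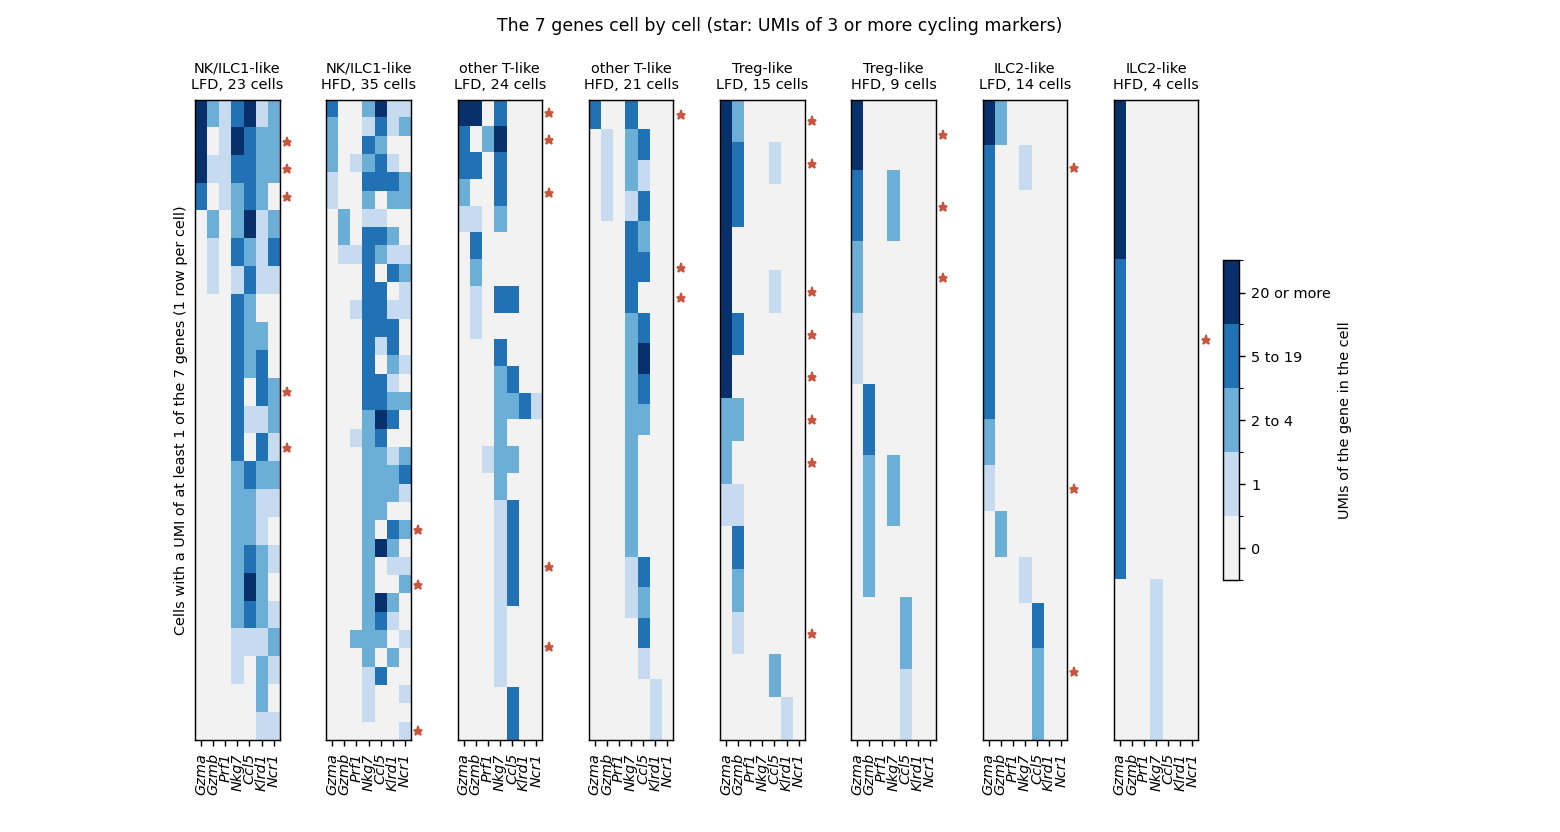
UMIs of each gene (columns) in every lymphoid cell with at least 1 of the 7 genes (rows, 1 per cell), by type and library, ordered by Gzma; a star marks a cell with UMIs of at least 3 cycling markers. In NK/ILC1-like cells Nkg7, Ccl5, Klrd1 and Ncr1 share rows, while in Treg-like and ILC2-like cells Gzma stands mostly without them.

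By the phi coefficient of detection over T, NK and ILC cells, computed in each library and given as a description, Nkg7 and Ccl5 were each other's nearest gene, ranked by the smaller of the coefficients of the libraries, at 0.62 in 215 LFD cells and 0.70 in 189 HFD cells. The next nearest to Nkg7 were Ctsw, a cathepsin of cytotoxic cells (0.63 and 0.60), and Ms4a4b (0.59 and 0.62), and to Ccl5, Ctsw (0.50 and 0.54) and Fcer1g (0.54 and 0.50). Klrd1 was nearest to the signalling adaptors Fcer1g (0.85 and 0.73) and Tyrobp (0.85 and 0.71) and to the receptor Klrk1 (0.78 and 0.71), which is 1 of the NK markers used for assignment. Cells of these types differ in depth and in type, which both enter such a coefficient. Gzma, Gzmb, Prf1 and Ncr1 were each found in fewer than 20 such cells of at least 1 library and were not compared.

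Over all T, NK and ILC cells pooled, the granzymes were lower and the NK-type genes higher in the HFD library. Gzma stood at 519 CPM (LFD) and 153 CPM (HFD), an HFD to LFD ratio of 0.30 (95% interval 0.24 to 0.36). Gzmb was at 90.3 and 28.9 CPM, a ratio of 0.32 (0.19 to 0.51). Nkg7 was at 171 and 278 CPM, a ratio of 1.62 (1.34 to 1.97), Ccl5 at 237 and 500 CPM, a ratio of 2.11 (1.81 to 2.46), Klrd1 at 43.6 and 105 CPM, a ratio of 2.41 (1.69 to 3.46), and Ncr1 at 26.9 and 48.5 CPM, a ratio of 1.80 (1.10 to 2.96). Of 8025 genes with at least 20 UMIs over both libraries, 6.64% were at least 2-fold higher and 5.74% at least 2-fold lower in HFD. Among the 6 of the 7 genes that passed this minimum, 2 were higher by that measure (Ccl5 and Klrd1) and 2 lower (Gzma and Gzmb). The ratio of Ncr1 was below 1 when only cells under 5% mitochondrial UMIs were kept (0.70) and in the mean of per-cell CPM (0.98), and that of Ccl5 was then 9.16 and 1.49. Klrd1 had a ratio of 1.37 in the mean of per-cell CPM, and Gzma one of 0.11 under the 5% limit.

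The higher pooled level of Nkg7, Klrd1, Ncr1 and Ccl5 was not seen within NK/ILC1-like cells. In NK/ILC1-like cells alone the ratios were 0.79 (0.61 to 1.02) for Nkg7, 0.89 (0.62 to 1.30) for Klrd1, 0.63 (0.38 to 1.04) for Ncr1 and 0.75 (0.62 to 0.90) for Ccl5, all below 1, although only the interval of Ccl5 left out 1. The NK/ILC1-like cells themselves made up 10.7% (6.90% to 15.6%) of the LFD and 19.6% (14.2% to 26.0%) of the HFD T, NK and ILC cells, and 6.45% and 19.1% of their UMIs. As a share of all filtered cells the class was 1.93 times as large in HFD (1.11 to 3.39). Ccl5 in this class depended on the cells kept, since its ratio was 5.36 among the 6 LFD and 7 HFD cells under 5% mitochondrial UMIs, 1.06 when 1 more marker was needed, and 0.96 without the 1 cell of each library that held most. Klrd1 was likewise at 2.00 under the 5% limit and between 0.82 and 1.00 under the other alternatives, whereas Ncr1 lay between 0.37 and 0.63 under all of them.

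Gzma was lower in HFD within 3 of the 4 lymphoid types. The ratio was 0.25 (0.17 to 0.35) in Treg-like cells, 0.12 (0.074 to 0.19) in NK/ILC1-like cells and 0.064 (0.020 to 0.15) in other T-like cells, but 1.16 (0.79 to 1.66) in ILC2-like cells. Each rests on the few cells listed above. Without the 1 cell of each library with the most Gzma the ratio was 0.11 in Treg-like, 0.080 in NK/ILC1-like and 0.67 in ILC2-like cells, and in other T-like cells no HFD UMI remained. Under the 5% mitochondrial limit it was 0.42 in NK/ILC1-like cells, and no Gzma UMI was left in the 4 Treg-like, 15 other T-like and 7 ILC2-like HFD cells that passed. The share of cells with Gzma was 31.2% and 25.0% in Treg-like, 17.4% and 16.2% in NK/ILC1-like, 11.6% and 2.56% in other T-like and 7.69% and 3.09% in ILC2-like cells. The median positive cell held 22 LFD and 4.5 HFD UMIs among Treg-like and 31 and 2 among NK/ILC1-like cells. It held 14 and 5 among other T-like but 7 and 10 among ILC2-like cells.

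Cells of mixed lineage also bore on the NK/ILC1-like ratio of Gzma. In the HFD library 7 of them passed the NK/ILC1-like gate and held 64 Gzma UMIs in 5 cells, and 4 of the 7 carried endothelial markers. In the LFD library 3 such cells held 14 UMIs, all in 1 cell. Counted as NK/ILC1-like, a choice made after the data had been seen, they brought the ratio to 0.34. Gzmb was lower in HFD other T-like cells (0.094, 0.019 to 0.29, and 0 to 0.37 over the alternatives), while in Treg-like cells its ratio of 0.57 had an interval that held 1 (0.28 to 1.06) and it ranged from 0.15 to 1.96 over the alternatives. Ccl5 was higher in HFD other T-like cells (2.12, 1.58 to 2.86), at 4.74 under the 5% mitochondrial limit, 4.33 with 1 more marker and 1.17 with the mixed cells, of which 15 in HFD passed the T gate, 10 with plasma cell markers.

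Set against all genes, these ratios stood in a wide field. In Treg-like cells 6.10% of 1983 genes were at least 2-fold higher and 10.0% at least 2-fold lower in HFD, and of the 2 followed genes with enough UMIs Gzma was among the lower. In NK/ILC1-like cells 10.4% of 1904 genes were higher and 4.67% lower, with none of 5 followed genes among the higher and Gzma among the lower. In other T-like cells 8.79% of 2424 genes were higher and 8.46% lower, with Ccl5 among the higher and Gzma and Gzmb among the lower of 4.

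**Figure D4:**
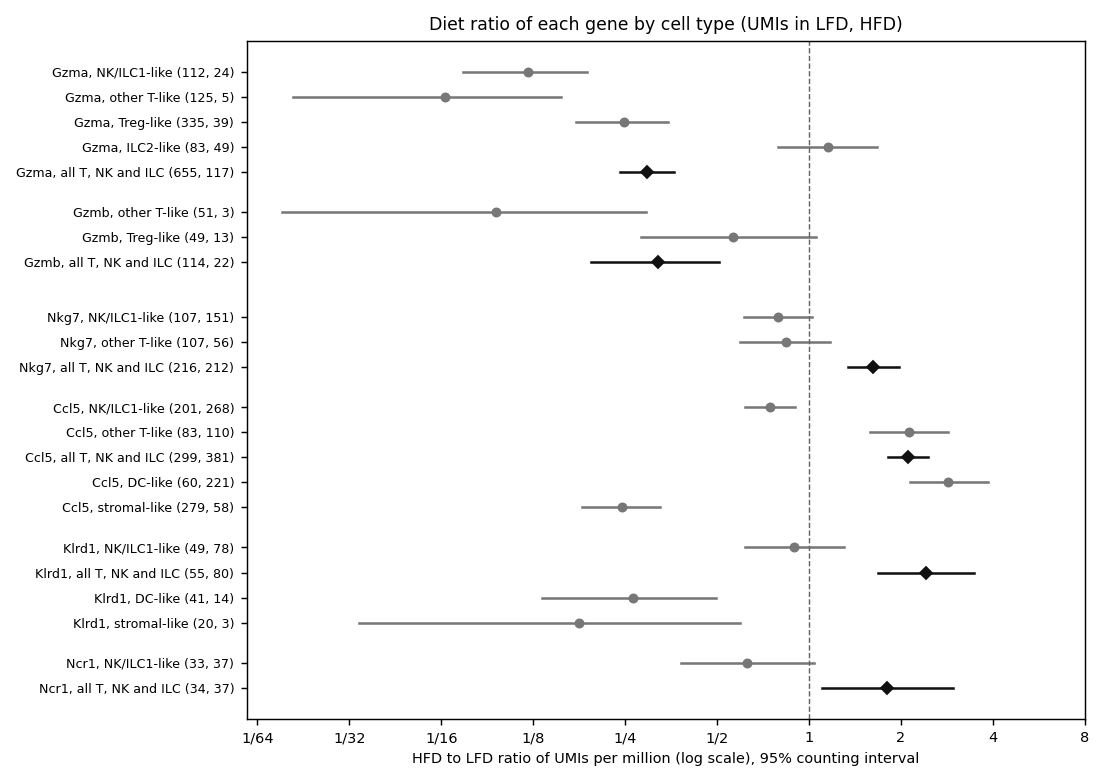
HFD to LFD ratio of CPM for each gene and cell type with at least 20 UMIs (log scale), with its 95% counting interval; diamonds are all T, NK and ILC cells and the numbers are LFD and HFD UMIs. For Nkg7, Klrd1 and Ncr1 the diamonds lie right of 1 and the NK/ILC1-like points left of it.

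Outside the lymphoid types Ccl5 was higher in DC-like cells and lower in stromal-like cells of the HFD library, and Klrd1 was lower in both. In DC-like cells Ccl5 stood at 146 CPM (LFD) and 417 CPM (HFD), a ratio of 2.86 (2.14 to 3.87), from 6 cells in each library, and at 6.92 under the 5% mitochondrial limit. In stromal-like cells it was at 3.32 and 0.813 CPM, a ratio of 0.24 (0.18 to 0.33) that ran from 0.099 to 0.56 over the alternatives, although the share of positive cells was 0.393% and 0.376%. Klrd1 in DC-like cells had a ratio of 0.26 (0.13 to 0.50), with values of 0.22 to 0.35 over the alternatives. In stromal-like cells it was 0.18 (0.034 to 0.60) from 20 and 3 UMIs, and 1.10 with 1 more marker needed.

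The other genes of the pathway were read from lists chosen with earlier results of these data known. Among 16 other granzymes and granule proteins, Gzmd, Gzme, Gzmf, Gzmg, Gzmm and Gzmn had no UMI in any T, NK or ILC cell, and Gzmc (6 and 3 UMIs) and Gzmk (4 and 2) had few. Srgn, the proteoglycan that packs granules, was the highest of the list in every lymphoid type, at 1689 and 1730 CPM in Treg-like and 1118 and 812 CPM in NK/ILC1-like cells. Of the 7 list members with 20 UMIs over all lymphoid cells, 2 were at least 2-fold higher in HFD and none lower, against 6.64% and 5.74% of all genes. Both were serpins, a family of protease inhibitors. Serpinb9, which inhibits granzyme B, was at 49.9 and 129 CPM (2.57, 1.86 to 3.59) and Serpinb6b was at 88.8 and 188 CPM (2.11, 1.64 to 2.73). Within NK/ILC1-like cells their ratios were 1.38 (0.86 to 2.26) and 1.37 (0.88 to 2.19), and within ILC2-like cells 2.33 (1.25 to 4.38) and 2.03 (1.36 to 3.03). Ctsc, the peptidase that activates granzymes, was lower in HFD within NK/ILC1-like cells (406 and 75.7 CPM, 0.19, 0.085 to 0.38) and other T-like cells (202 and 52.5 CPM, 0.26, 0.090 to 0.62), although 26 of its 33 LFD NK/ILC1-like UMIs were in 1 cell and without the highest cell of each library the first ratio was 0.53.

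All 6 genes of granule release had 20 UMIs over all lymphoid cells. There 2 were at least 2-fold higher in HFD and none lower, against 6.64% and 5.74% of all genes. They were Rab27a (13 and 20 UMIs, 2.55, 1.21 to 5.57) and Lyst (8 and 20 UMIs, 4.14, 1.75 to 10.9). Vamp8 and Stx11, the highest of the list, were at 1.03 and 0.94. Of 20 other NK receptors and adaptors, 13 had 20 UMIs, 5 of them at least 2-fold higher and none lower over all lymphoid cells, against the same 6.64% and 5.74% of all genes. The 5 were Klrb1c, Klrc1, Klre1, Cd244a and Tyrobp, and within NK/ILC1-like cells 12 had enough UMIs and none was past 2-fold in either direction, where 10.4% of all genes were higher and 4.67% lower, with a median ratio of 0.79. Among the effectors, Ccl4, a chemokine made alongside Ccl5, was at 73.7 and 268 CPM in NK/ILC1-like cells (3.64, 1.53 to 10.5). Xcl1, the highest effector in that class and a marker used for assignment, was lower at 528 and 330 CPM (0.62, 0.41 to 0.97). Over all lymphoid cells 5 of 8 effectors had 20 UMIs. Of these, 3 were at least 2-fold higher and none lower, against 6.64% and 5.74% of all genes. Ifng (10 and 14 UMIs) was 1 of the 3, at 2.32 with an interval that held 1 (0.96 to 5.83). Csf2, which encodes GM-CSF, stood apart in ILC2-like cells with 22 UMIs in 14 of 117 LFD cells and 171 UMIs in 33 of 97 HFD cells, a ratio of 15.2 (9.73 to 24.9), or 11.9 without the highest cell of each library. Of 10 transcription factors, 7 had 20 UMIs over all lymphoid cells, and only Tcf7 was at least 2-fold higher (2.43, 1.62 to 3.66). None was lower, against 6.64% higher and 5.74% lower of all genes. Tcf7 was also higher in other T-like cells (2.67, 1.51 to 4.83), where 8.79% of all genes were at least 2-fold higher. In ILC2-like cells, where 7.48% of 6257 genes were at least 2-fold higher and 9.54% lower, the factors Gata3 (2.01, 1.77 to 2.27) and Rora (2.07, 1.84 to 2.33), both markers used for assignment, and the adaptor Hcst (2.04, 1.56 to 2.68) were past 2-fold.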

How the data were processed

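The deposited matrices hold raw UMI counts per gene and cell, made by the authors with Cell Ranger 4.0.0 (the submitters' processing notes name genome mm10) and not normalized, with 114311020 UMIs in the LFD and 119498750 in the HFD library. The notes also list bcl2fastq 2.17.1.14, STAR and Seurat 4.1.0. Cells with at least 100 genes, 500 to 40000 UMIs and under 12.5% mitochondrial UMIs were kept. A type was assigned from the number of its markers with a UMI (at least 2 of 4 core T genes and 3 of 11 T markers, 3 of 17 NK and ILC1, 5 of 12 ILC2, and Foxp3 or 3 of 4 Treg markers). The minimums were set after the marker counts had been seen, and the genes, lists and motifs were chosen with earlier results of these data known. Related genes past 2-fold with an interval that leaves out 1 are named. By the same rule the 2 highest of a list could be, and only some of these are. The shares of all genes past 2-fold use the fold alone. Doublets stayed in the main values. Removing the cells with the highest simulated-doublet scores, at 0.8% per 1000 barcodes (922 LFD and 658 HFD cells), was an alternative. CPM carries an exact Poisson interval, a share a Clopper-Pearson interval and a ratio an exact conditional interval, all 95%. A count of 0 was read as up to 3 counts. Python 3.11.15 was used with numpy 2.4.6, scipy 1.17.1 and scikit-learn 1.9.0. The ratio was tried only on simulated Poisson counts of pooled cells. These leave out UMIs held by a few cells, so the trial does not cover such ratios. Gene positions are from GENCODE M21 (GRCm38). Other alternatives were a 5% mitochondrial limit, 1 more marker for a type, leaving out the cell with the most UMIs, the mean of per-cell CPM, median-ratio scaling, other UMI minimums and counting the mixed-lineage cells by their lymphoid gate.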

Additional observations from a re-analysis of the deposited data

Results flagged for a closer look

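Ccl5 went opposite ways between the libraries in DC-like and stromal-like cells. Its HFD to LFD ratio was 2.86 (95% interval 2.14 to 3.87) in DC-like cells and 0.24 (0.18 to 0.33) in stromal-like cells, so the first was 11.7 times the second. The difference was not tested, since each diet had 1 library. Over the alternatives the ratio ran from 1.97 to 6.92 in DC-like and from 0.099 to 0.56 in stromal-like cells. In DC-like cells the UMIs were in 6 cells of each library, and in stromal-like cells 88.9% of the 279 LFD UMIs were in 5 cells.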

How the results depend on the processing

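No paired analysis was possible because each diet had 1 library. Counting intervals leave out differences between mice and libraries, and many values rest on a few cells. Of the values recomputed for the main comparisons, 64 stayed within counting error (or, for percentages of genes, within 1.5 times), 24 moved beyond it and 2 reversed. Of the other values recomputed, 292 stayed, 161 moved and 3 reversed. Among these other values 40 moved, 1 reversed and 18 stayed under the 5% mitochondrial limit. Under the 5% mitochondrial limit the ratio over all T, NK and ILC cells was 0.11 for Gzma, 9.16 for Ccl5, 3.51 for Klrd1 and 0.70 for Ncr1, and that of Ccl5 in NK/ILC1-like cells was 5.36. With 1 more marker needed for a type it was 0.12 for Gzmb and 2.84 for Ccl5 over all these cells, 1.06 for Ccl5 in NK/ILC1-like cells and 1.10 for Klrd1 in stromal-like cells. As the mean of per-cell CPM it was 0.60 for Gzmb, 1.49 for Ccl5, 1.37 for Klrd1 and 0.98 for Ncr1. Without the highest doublet scores Nkg7 was at 1.29 and Ccl5 at 1.79, and with the mixed-lineage cells, an alternative chosen after seeing the data, at 1.28 and 1.79. The cause of these moves was not tested. The share of LFD ILC2-like cells with a granzyme that had Nkg7, Klrd1 or Ncr1 was 0% at 2 UMIs or more. With at least 50 UMIs required, the percentage of genes past 2-fold was 3.55% (lower) over all T, NK and ILC cells, 4.19% (higher) and 2.79% (lower) in NK/ILC1-like, 3.96% (higher) in other T-like and 3.48% (higher) and 6.4% (lower) in Treg-like cells. With 1 UMI in each library it was 11.4% (higher) and 8.85% (lower) over all these cells, 12.6% (lower) in NK/ILC1-like, 18.8% (higher) in other T-like and 24.8% (higher) in Treg-like cells.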
